A study of Panicum virgatum with 8 samples.

Results

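The miR444, miR1432, miR2118 and miR2275 families were looked for in the small RNAs of switchgrass (Panicum virgatum AP13), a tetraploid grass whose chromosomes come as K and N copies. A predicted locus was counted where the first word of its miRBase name held one of these family numbers and the named strand was at least as abundant as the strand paired with it. This gave 9 predicted structures at 6 loci, of 494 structures at 210 loci in all, and 5 distinct mature sequences of 59. They comprised 1 locus of miR444 (ssp-miR444b.1), 1 of miR1432 (ata-miR1432-5p) and 4 of miR2118 (ata-miR2118b-5p, ata-miR2118d-3p and bdi-miR2118a), and 0 loci carried a miR2275 name. Loci with poor pairing were included.

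The values come from 8 small RNA libraries, 1 per condition, of the same strain grown in a greenhouse. The methods name propagation from cuttings for the plants of the stress treatments. A library was made from a control for cold and from plants held at 4 °C for 24 h. Others came from a control for drought, from plants sampled 11 days after watering stopped, and from plants watered again and sampled on day 12. The last were from leaf, stem and panicle, with no stress treatment in their names. The labels give above-ground tissue for the control and stress libraries, whereas the methods name upper leaf blades. The table analysed names no library, and each sequence has the same abundance wherever it recurs, so the libraries were taken as pooled. No value below therefore has a replicate error, and no condition or tissue could be compared. The study gives read totals for the libraries, of which that of the panicle was the smallest, and no value below uses them. The table does not say how the libraries were pooled or scaled. Neither the number of reads behind an abundance nor the share of it that came from the panicle is therefore known.

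In plants a miRNA is cut as a duplex from the stem of a folded precursor, and the strand that is retained (the miRNA) guides cleavage of complementary mRNAs, while its partner (the miRNA*) is mostly lost. The miR444 family is restricted to monocots and in rice targets MADS-box transcription factor genes, some of which act in nitrate responses. In rice, miR1432 targets include genes for EF-hand calcium-binding proteins. The miR2118 family belongs to a group whose members in many plants target NB-LRR disease resistance genes, and in grasses it triggers phased small interfering RNAs from non-coding transcripts in young anthers, a role that miR2275 has for a later class of such RNAs.

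The mature sequences are shown because the families were assigned by similarity to miRBase entries of other species, and because the miR2118 variants can only be told apart by sequence. Letters are those of the deposited table, with T for U, and capitals mark the seed (bases 2 to 8 from the 5′ end).
ssp-miR444b.1: tTGTGGCTttcttgcaagttg
ata-miR1432-5p: tCAGGAGAgatgacaccgacg
ata-miR2118b-5p: tTCCCGATgcctcccattccta
ata-miR2118d-3p: tTCCTGATgcctcccatgccta
bdi-miR2118a: tTTCCGATgcctcccattccta

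All 5 sequences began with T (U in the RNA), as did 49 of the 59 sequences of the table. The miR444 and miR1432 sequences were of 21 nt and the 3 miR2118 sequences were of 22 nt. Only 6 of the 59 sequences were of 22 nt, so miR2118 made up 3 of these 6. Counted by locus, 4 of the 6 loci had a 22-nt miRNA, against 17 of all 210 (8.1%). Base composition ranged from 42.9% G or C in ssp-miR444b.1 to 57.1% in ata-miR1432-5p.

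The 3 miR2118 sequences were the same at 19 of 22 positions. They shared the run GATGCCTCCCAT at bases 6 to 17, which was in 0 of the 54 sequences outside these families (searched on the listed strand only). Counted from the 5′ end, bdi-miR2118a differed from ata-miR2118b-5p by C3T alone, and ata-miR2118d-3p differed from ata-miR2118b-5p by C5T and T18G. The changes at bases 3 and 5 lie in the seed. No seed was therefore shared between these 5 sequences, and 0 other sequences of the table shared a seed with any of them.

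Sequences that the study used for the same families in Brachypodium distachyon, a temperate model grass, give a reference from 1 other species. Brachypodium miR2275a, miR2275b and miR2275c are not shown, and none was identical to any of the 59 mature sequences. Those of the other families are shown here with T for U and the seed in capitals.
Brachypodium miR2118a: tTTCCGATgcctcccattccta
Brachypodium miR2118b: tTCCTGATgcctcccattccta
Brachypodium miR1432: tTCAGGAGagatgacaccgaca
Brachypodium miR444a: tTGCTGCCtcaagcttgctgc
Brachypodium miR444b: tGCAGTTGctgcctcaagctt
Brachypodium miR444c/miR444d: tGCAGTTGttgtctcaagctt

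The switchgrass bdi-miR2118a was identical to Brachypodium miR2118a over 22 nt. With Brachypodium miR2118b as the reference, ata-miR2118b-5p differed by T5C and ata-miR2118d-3p by T18G, each in 1 of 22 positions. The 21-nt ata-miR1432-5p matched the 22-nt Brachypodium miR1432 at 20 of 21 positions when shifted by 1 nt, lacking its first base and carrying A22G at the 3′ end. For miR444, the switchgrass sequence was unlike those of Brachypodium at the shifts tried. The best ungapped match of ssp-miR444b.1 to Brachypodium miR444a was 8 of 20 positions, to miR444b 8 of 21 and to the shared sequence of miR444c and miR444d 10 of 21, with shifts of up to 3 nt tried. Despite the shared family name, ssp-miR444b.1 thus had little in common with these Brachypodium sequences at these shifts. Larger shifts were not tried, and the Brachypodium sequences were not compared with each other. Only ssp-miR444b.1 was listed for miR444 in switchgrass. The miRBase names of all 5 sequences are those of grasses (Saccharum, Aegilops tauschii and Brachypodium), as are those of 42 of the 59.

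All 5 sequences were below the median abundance of the table. The highest was ata-miR1432-5p, with a pooled abundance of 24, followed by ata-miR2118b-5p at 19 and ssp-miR444b.1 at 9. The lowest were ata-miR2118d-3p and bdi-miR2118a, both at 7. Their sum of 66 was 0.0235% of the summed abundance of the 59 sequences (280996). The median of the 5 was 9 and that of all 59 sequences was 120. The unit of these whole numbers is not named in the table, so they cannot be set against the minimum of 10 TP10M (transcripts scaled to a fixed number of reads) that the methods state. As numbers, 3 of the 5 were under 10, as were 13 of the 59.

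In the order of abundance, ata-miR1432-5p stood with 39 sequences above it and 19 below, between ata-miR169f-5p and stu-miR399f-3p (both 29) and ata-miR167e-5p (23). The miR2118 sequence ata-miR2118b-5p lay between atr-miR535 (20) and the pair atr-miR171c and bdi-miR156e-3p (both 13). Next below this pair came ssp-miR444b.1, with 12 sequences under it. The value of 7 was shared by osa-miR396d, ata-miR2118d-3p and bdi-miR2118a, with 9 sequences lower. Without replicates, none of these neighbours can be told apart beyond their spread. Likewise, no sequence can be named as having a like pattern, because each has 1 value.

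**Figure D1:**
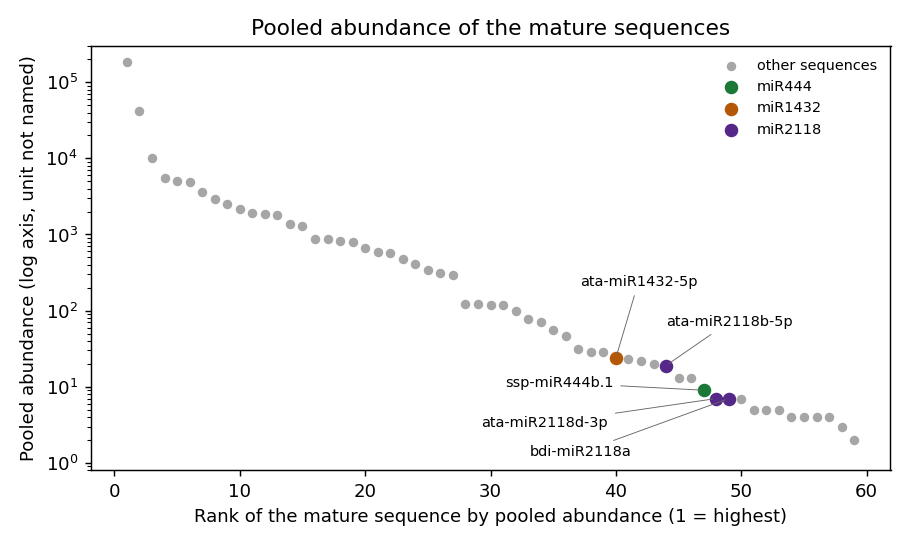
Pooled abundance (log axis, unit not named) of the 59 mature sequences against their rank, with miR444, miR1432 and miR2118 in colour and tied sequences placed in name order. The 5 coloured points lie between 7 and 24, in the lower part of a range that runs from 2 to 185355.

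Of the 6 loci, 3 were on K and 3 on N chromosomes, against 98 on K, 105 on N and 7 on scaffolds for all 210. Coordinates are those of version 4.1 of the genome. The miR444 locus was on Chr01N (minus strand) from 87088746 to 87088833, and the miR1432 locus was on Chr02N (minus strand) from 93597925 to 93598037. Of the miR2118 loci, that of bdi-miR2118a was on Chr02K (plus strand) from 32640593 to 32640799. The other miR2118 loci were all on the minus strand of chromosome 7 copies. On Chr07K, ata-miR2118d-3p ran from 46675065 to 46675146 and ata-miR2118b-5p from 46695477 to 46695677, and on Chr07N a further ata-miR2118b-5p locus ran from 45434904 to 45435024. Neighbouring genes, such as a MADS-box gene near miR444, were not looked up, as no annotation of this version was used here.

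The Chr07K loci were a close pair of miR2118 hairpins, 20.3 kb apart on the same strand, and each was the nearest listed locus to the other. For the remaining 4 loci the nearest listed locus was of another family and at least 483.2 kb away. Only ata-miR2118b-5p had loci on the K and the N copy of 1 chromosome, whereas 37 of the 59 sequences did. Whether its Chr07K and Chr07N loci are copies of each other was not tested. The other 4 sequences had 1 locus each, as did 15 of the 59. A second copy that did not reach the table cannot be seen here.

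The position of the miRNA in its precursor differed within miR2118. The miRNA lay on the 5′ arm at the miR444, miR1432, bdi-miR2118a and Chr07K ata-miR2118b-5p loci, and on the 3′ arm at the ata-miR2118d-3p and Chr07N ata-miR2118b-5p loci. This gave 4 of 6 on the 5′ arm, against 114 of 210 (54.3%). The same 22-nt ata-miR2118b-5p was thus listed on opposite arms on Chr07K and Chr07N, and on Chr07N it was on the arm opposite to the one in its name. Among the 141 loci whose name ends in 5p or 3p, 8 were listed on the other arm, this locus included.

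The distance between the miRNA and the miRNA* separated the miR2118 loci in the same way. It was 141 nt for bdi-miR2118a and 140 nt for ata-miR2118b-5p on Chr07K, the loci with the miRNA on the 5′ arm. It was 15 nt for ata-miR2118d-3p and 56 nt for ata-miR2118b-5p on Chr07N, the loci with the miRNA on the 3′ arm. The miR444 and miR1432 loci had 30 nt and 53 nt between the strands. The median over all 210 loci was 59 nt, between the short and the long miR2118 hairpins.

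**Figure D2:**
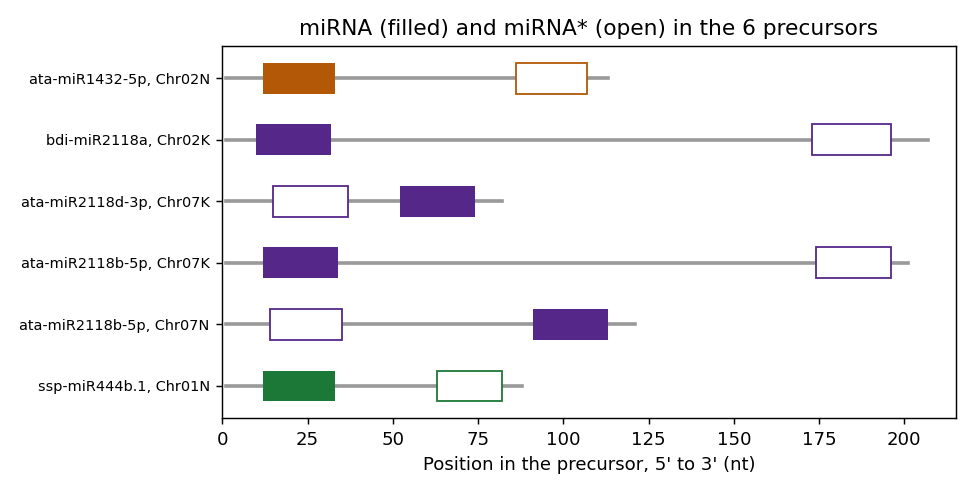
Map of the 6 precursors drawn to scale, with position in the precursor (nt, 5′ to 3′) on the horizontal axis, the miRNA as a filled box and the miRNA* as an open box. Both long miR2118 precursors (207 and 201 nt) carry the miRNA first, and both short ones (82 and 121 nt) carry it second.

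Predicted hairpin energies followed the hairpin lengths, except that miR1432 was more stable than the longer Chr07N miR2118 hairpin. The longest hairpins were the most stable, at -85.2 kcal/mol over 204 nt for bdi-miR2118a and -76.1 kcal/mol over 190 nt for ata-miR2118b-5p on Chr07K. The miR1432 hairpin reached -71.1 kcal/mol over 110 nt. The other miR2118 hairpins had -56.9 kcal/mol over 118 nt (Chr07N) and -46.8 kcal/mol over 78 nt (ata-miR2118d-3p). The miR444 hairpin was the shortest and least stable of the 6, at -32.9 kcal/mol over 73 nt, and 205 of the 210 loci had a lower energy. The median of the 6 was -64.0 kcal/mol, with a range of -85.2 to -32.9, and that of all 210 loci was -68.8 kcal/mol, with a range of -156.6 to -24.1.

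Taken per nucleotide of hairpin, the order changed. The miR1432 hairpin had -0.646 kcal/mol per nt, and 18 of the 210 loci were lower, and the ata-miR2118d-3p hairpin had -0.600, with 38 lower. The long miR2118 hairpins, with -0.417 (bdi-miR2118a) and -0.401 (ata-miR2118b-5p on Chr07K), had 196 and 200 loci lower. In between came ata-miR2118b-5p on Chr07N (-0.483) and miR444 (-0.451). The median was -0.467 for the 6 loci and -0.534 for all 210. So the hairpins with the lowest total energies were the weakest of the 6 for their length.

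**Figure D3:**
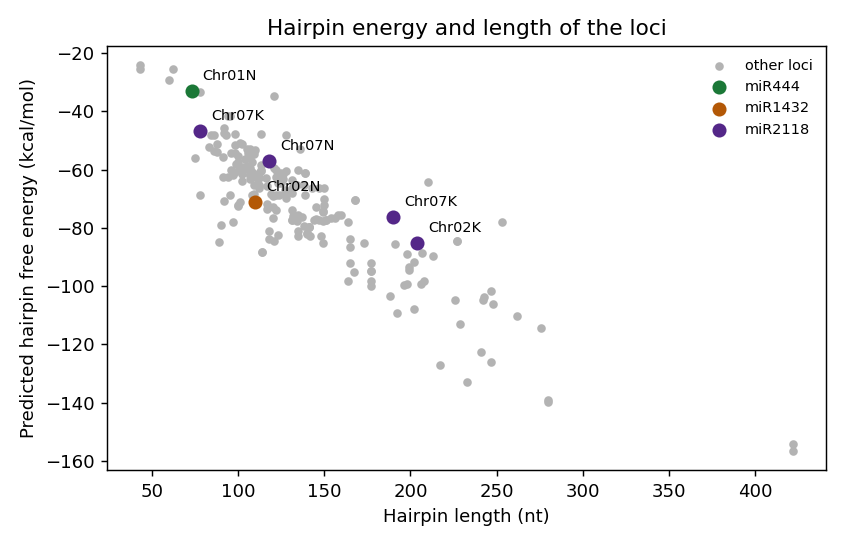
Predicted hairpin free energy (kcal/mol) against hairpin length (nt) for the 210 loci, 1 point each, with the 6 loci in colour and marked by chromosome. The long miR2118 hairpins (190 and 204 nt) lie at -76.1 and -85.2 kcal/mol and the miR1432 hairpin (110 nt) lies at -71.1 kcal/mol, close to the Chr07K ata-miR2118b-5p hairpin although shorter.

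More mismatch positions between the strands were listed at these loci than at most others. The table gave 4 mismatch positions (bulges included) for ata-miR2118d-3p, 5 for ata-miR1432-5p and both ata-miR2118b-5p loci, and 6 for ssp-miR444b.1 and bdi-miR2118a. The median was 5 for the 6 loci and 3 for all 210. None of the 6 had under 4 mismatch positions, while 141 of the 210 had 1 to 3. Bulged nucleotides were 0 for miR1432, 1 for each of ata-miR2118d-3p and the ata-miR2118b-5p loci, and 2 for bdi-miR2118a and miR444.

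These counts placed the loci at the edge of the limits in the methods, which allow no more than 5 mismatch positions and 3 nt in asymmetric bulges, in a precursor shorter than 300 nt with a miRNA between 20 and 24 nt. Within them were 4 of the 6 loci, against 185 of 210 (88.1%). The loci just inside, at 5 mismatch positions, were those of ata-miR1432-5p and ata-miR2118b-5p, and the loci just outside, at 6, were those of ssp-miR444b.1 and bdi-miR2118a. The authors' own call in the table was miRNA candidate for 1 of the 6 loci, ata-miR2118d-3p, against 159 of 210 (75.7%), and miRNA-like for the other 5. Taken by its most stable structure, no locus of the table with 5 or more mismatch positions was a miRNA candidate, and 24 of the 26 loci with 4 were.

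The miRNA* was listed at an abundance of 0 at all 6 loci, whereas 92 of the 210 loci (43.8%) listed at least 1. None of the 6 miRNA* strands had a miRBase name, and across the table the 194 structures with a miRNA* at 0 were those without such a name. A value of 0 is therefore given only as listed, and whether these strands were sequenced was not tested. None of the 5 sequences is in the list of conserved switchgrass miRNAs that the study took forward to target prediction.

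The miRNA* sequences are shown in lower case, 5′ to 3′, because the miR2118 loci differ in them as well as in the miRNA.
ssp-miR444b.1 miRNA* (Chr01N): ctttgccagagctacaagt
ata-miR1432-5p miRNA* (Chr02N): ccggtgtcatttcccctgaac
bdi-miR2118a miRNA* (Chr02K): ggcatgggaacatggaggaaagc
ata-miR2118d-3p miRNA* (Chr07K): ggcatgggaacatggaggaaag
ata-miR2118b-5p miRNA* (Chr07K): ggcatgggaacatcgaggaagg
ata-miR2118b-5p miRNA* (Chr07N): ggaatgggaacatggaggaaa

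The miRNA* of bdi-miR2118a on Chr02K was identical over 22 nt to that of ata-miR2118d-3p on Chr07K and 1 nt longer, although these miRNAs differed at 3 positions. Against the miRNA* of ata-miR2118d-3p, and counted from its 5′ end, that of ata-miR2118b-5p on Chr07K carried G14C and A21G and that on Chr07N carried C3A. The loci that shared a miRNA therefore did not share a miRNA*, and the loci that shared a miRNA* did not share a miRNA.

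The strands listed for each locus were paired anew with RNAduplex, which predicts the most stable duplex of a pair of RNAs. The miR1432 duplex was the strongest of the 6, at -29.4 kcal/mol with 17 base pairs, and 42 of the 210 loci had a lower energy. The miR2118 duplexes had -24.7 kcal/mol (ata-miR2118d-3p), -23.9 (ata-miR2118b-5p on Chr07N), -22.8 (ata-miR2118b-5p on Chr07K) and -17.0 (bdi-miR2118a). The miR444 duplex, with 15 base pairs of which 3 were G:U, was the weakest at -16.2 kcal/mol, and its miRNA* of 19 nt was the shortest of the 6. The median was -23.4 kcal/mol for the 6 loci and -27.1 kcal/mol for all 210, so only miR1432 was below the latter. The number of base pairs did not set the 6 loci apart, with a median of 17 for them and for all 210. The medians were 5 against 4 for unpaired miRNA bases and 0.5 against 1 for G:U pairs.

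Cutting by a Dicer-type enzyme typically leaves each strand with a short 3′ overhang. Here the overhang is the stretch of a strand's 3′ end beyond the 5′ end of its partner, which leaves out end bases that face each other unpaired, such as base 19 of miR444 and miR1432. In these predicted duplexes it was 2 nt at both ends at 4 of the 6 loci, against 164 of 210 (78.1%). Because the miRNA* was listed at an abundance of 0 at all 6 loci, the overhangs describe listed strands only. How the strands were cut in the plant was not tested. The exceptions were bdi-miR2118a, whose miRNA* overhung by 5 nt, and ata-miR2118b-5p on Chr07N, whose miRNA* overhung by 1 nt.

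Within the miR2118 duplexes, bases 10 and 11 of the miRNA were unpaired at all 4 loci, and bases 21 and 22 formed the 3′ overhang. Base 18, where the sequences differ by T18G, was paired with base 3 of the miRNA*, where they differ by C3A, at ata-miR2118d-3p and at ata-miR2118b-5p on Chr07N. It was unpaired at bdi-miR2118a and at ata-miR2118b-5p on Chr07K. The loci with base 18 paired were those with the miRNA on the 3′ arm and a short hairpin, and the loci with it unpaired were those with the miRNA on the 5′ arm and a long hairpin. Base 6 was paired only at ata-miR2118b-5p on Chr07K, with base 14 of the miRNA*, the position of G14C.

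Each miR2118 sequence was also paired with the miRNA* of every miR2118 locus. For ata-miR2118b-5p the strongest duplex was with its own Chr07N miRNA* (-23.9 kcal/mol), followed by its own Chr07K miRNA* (-22.8), and with the 2 other miRNA* strands it was -19.4. For ata-miR2118d-3p the strongest was not its own (-24.7) but that of ata-miR2118b-5p on Chr07K (-28.0 kcal/mol, 18 base pairs), the locus 20.3 kb away, and the weakest was with the Chr07N miRNA* (-18.0). For bdi-miR2118a its own miRNA* gave the weakest value (-17.0 kcal/mol, equal to that with the identical stretch from ata-miR2118d-3p), and the Chr07N miRNA* gave the strongest (-21.5). So the listed partner was the strongest available for ata-miR2118b-5p on Chr07N only. These energies come from the sequences alone and say nothing of which strands meet in the plant.

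**Figure D4:**
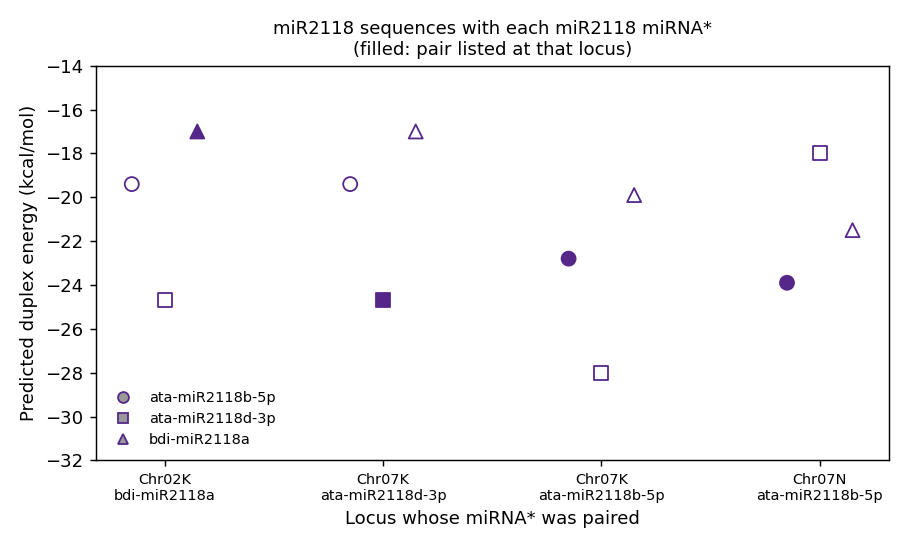
Predicted duplex energy (kcal/mol) of the 3 miR2118 sequences (marker shapes) with the miRNA* of each of the 4 miR2118 loci (horizontal axis), with filled markers for the pair listed at that locus. The lowest point, at -28.0 kcal/mol, is an open marker for ata-miR2118d-3p with the miRNA* of the Chr07K ata-miR2118b-5p locus.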

How the data were processed

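Small RNA of switchgrass was sequenced by the authors from 8 libraries. After adapter removal, reads were aligned with Bowtie (0.12.7 in the submitters' processing notes) to the switchgrass genome, version 4.1. The authors evaluated sequences matching miRBase 21 with modified miREAP and folded precursors with UNAFold. The deposited abundances are treated as a score without a named unit. Energies, lengths, positions and mismatch counts are the authors' predictions from sequence. The column read as nucleotides in asymmetric bulges is not explained in the table.

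Each locus was counted once, by its more abundant arm and its most stable structure, and was within the limits where any structure of that arm met them. The filters on strand, abundance bias and genome hits cannot be recomputed from the table. Duplexes were predicted with RNAduplex (ViennaRNA 2.7.2). An overhang is the number of bases by which a strand's 3′ end extends past the 5′ end of the other strand, so unpaired bases that face each other at an end are not counted. Sequences were compared without gaps. Every locus and sequence of these families was named, and other sequences only as neighbours in abundance. The families and alternatives were chosen with earlier results of these data known. No test was made, because values are pooled and loci are not replicates. The selection was tested on simulated loci. Python 3.11.15, numpy 2.4.6, pandas 2.3.3 and matplotlib 3.10.9 were used.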

Additional observations from a re-analysis of the deposited data

How the results depend on the processing

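Of 12 alternatives, 9 left the result within 1.5 times the count or within the spread over loci, and 2 moved it. The remaining alternative, the energy per nt, is in another unit. Several of the 9 could not have changed the result, as given below. The number of loci stayed at 6 when overlapping loci were merged, scaffolds were left out or either strand could carry the name. None of the 6 loci was on a scaffold or overlapped another listed locus. Merging and leaving out scaffolds therefore could not change this count. The count was 1 when only structures called miRNA candidate were kept, against 163 of all 210 loci. The number within the limits was 4, against 185 of all 210 loci. It was 1 with at most 4 mismatch positions (171 of all loci) and 3 with a precursor under 200 nt (156 of all loci). It was 4 with at most 2 nt in bulges (184 of all loci) or with the most stable structure only (180 of all loci). Neither setting could change the count for the 6 loci. None of them had more than 2 bulged nt, and the structures of each locus were equal in mismatch positions and bulges. Where either count was 1, the locus left was that of ata-miR2118d-3p, the only one of the 6 with 4 mismatch positions. The median hairpin energy was -66.5 kcal/mol with each sequence weighted equally. The spread allowed for it was 19.6 kcal/mol, the standard deviation over the 6 loci. With the structure of fewest mismatch positions the median could not change, because these counts were equal within each locus. The count of 3 loci on K could not change when each sequence was counted once on K and once on N. The only sequence with more than 1 locus had 1 on each. Per nt, as in kcal/mol, the median of the 6 loci was above that of all loci. No paired analysis was possible because the table holds pooled values and the labels give 1 library for each condition.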
